A study of Mus musculus with 8 samples.

Results

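10 genes of the ATF4 and endoplasmic reticulum (ER) stress responses were followed in mouse macrophages with and without the transcription factor Ets1. They were taken by symbol as 10 of the 23346 genes of the deposited expression table, and all 10 had a row and were tested. Of these, 7 belong to the amino acid response (Asns, Psat1, Chac1, Trib3, Ddit3, Ddit4 and Atf4). The other 3, called ER members below, are the chaperone gene Hspa5, the degradation gene Herpud1 and Xbp1, which codes for a transcription factor. RNA came from bone marrow-derived macrophages, grown from the marrow of male mice aged 8 weeks over 7 days in medium holding 10% serum and M-CSF at 10 ng/ml. The 3 control libraries had the genotype Ets1 f/f, with floxed Ets1 alleles and no Cre. The 3 knockout libraries had the genotype Ets1 f/f * Lyz2-cre, in which Cre made from the Lyz2 locus acts in myeloid cells. The genotypes of both RNA groups thus shared the floxed alleles, and the controls did not carry Lyz2-cre. The labels do not say whether replicates were separate animals, so p-values measure the spread between these libraries. Ets1 ChIP-seq came from wild type C57 macrophages after M1 or after M2 polarization, with 1 library each, and the polarizing agents are not named. The mice for ChIP-seq were also aged 8 weeks, and culture was also 7 days with 10% serum and M-CSF at 10 ng/ml.

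ATF4 is a transcription factor whose protein is made when phosphorylation of the initiation factor eIF2 slows general translation. Amino acid shortage acts through the kinase GCN2 and misfolded ER proteins act through the kinase PERK, and ATF4 then turns on genes for amino acid synthesis, amino acid transport and tRNA charging. Separately, the ER sensors IRE1 and ATF6 raise chaperone and degradation genes through the spliced form of Xbp1 and the cleaved form of ATF6. Much of ATF4 and XBP1 control lies in translation, splicing and protein stability, which gene-level read counts do not show.

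The promoters of these genes carry different known elements, which are shown here so that the matched letters can be read beside each gene's values. RefSeq promoter windows (build GRCm38.p6, 250 bases before to 50 after a start) were found for all 10 members, in 11 windows. The core of the C/EBP-ATF response element, TGATGNAA, was searched on both strands and lay in the windows of 4 members, Asns, Chac1, Trib3 and Herpud1, against 3.97% of all 32851 windows. The ER stress response element (CCAAT and CCACG, in that order, parted by any 9 bases) lay in the Hspa5 window and in 0.119% of all windows. Its variant (ATTGG and CCACG parted by any 1 base) lay in the Herpud1 window and in 0.0365% of all windows, so Herpud1 held an element of each arm. The other amino acid response members (Psat1, Ddit3, Ddit4 and Atf4) had no match to the core, and Xbp1 had none to either ER stress element, in these windows. The ETS consensus CCGGAAGT, the type of site that Ets1 binds, lay in the Ddit3 window and in 3.89% of all windows. The shorter ETS core CGGAAG, which overlaps that match, was found in the Ddit3 and Psat1 windows and in 16.9% of all windows. A match is a description of these letters and not evidence of binding. The sequences below run 5′ to 3′ on the gene's strand, with the matched element in capitals, and end at the base before the RefSeq start except for Trib3, whose match lies 15 to 22 bases into the transcript. They are Asns at chr6:7693210-7693459 (minus strand), Chac1 at chr2:119350992-119351241 (plus), Trib3 at chr2:152344028-152344057 (minus), Herpud1 at chr8:94386179-94386428 (plus), Hspa5 at chr2:34771840-34772089 (plus) and Ddit3 at chr10:127290543-127290792 (plus). Capitals written as TTGCATCA, TTACATCA or ACTTCCGG are matches on the opposite strand, and the second run of capitals in Herpud1 is the ER stress variant.
Asns: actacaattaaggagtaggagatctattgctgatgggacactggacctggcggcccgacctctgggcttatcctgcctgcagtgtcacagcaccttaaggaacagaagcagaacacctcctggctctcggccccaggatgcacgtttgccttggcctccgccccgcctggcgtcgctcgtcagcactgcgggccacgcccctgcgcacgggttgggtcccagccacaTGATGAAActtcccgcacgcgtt
Chac1: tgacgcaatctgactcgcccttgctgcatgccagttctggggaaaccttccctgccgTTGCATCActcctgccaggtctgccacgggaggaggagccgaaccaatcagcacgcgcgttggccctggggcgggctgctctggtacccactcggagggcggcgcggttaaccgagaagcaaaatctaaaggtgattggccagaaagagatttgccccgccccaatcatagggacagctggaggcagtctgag
Trib3: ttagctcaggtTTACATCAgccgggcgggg
Herpud1: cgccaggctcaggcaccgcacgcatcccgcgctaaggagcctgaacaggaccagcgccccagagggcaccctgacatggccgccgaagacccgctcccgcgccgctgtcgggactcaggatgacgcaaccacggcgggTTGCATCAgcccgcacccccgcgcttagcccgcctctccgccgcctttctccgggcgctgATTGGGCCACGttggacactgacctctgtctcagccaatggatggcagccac
Hspa5: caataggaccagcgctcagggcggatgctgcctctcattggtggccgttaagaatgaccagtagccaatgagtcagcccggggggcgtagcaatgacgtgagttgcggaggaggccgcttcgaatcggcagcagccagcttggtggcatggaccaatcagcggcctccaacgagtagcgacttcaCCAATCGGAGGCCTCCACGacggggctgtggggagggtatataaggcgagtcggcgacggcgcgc
Ddit3: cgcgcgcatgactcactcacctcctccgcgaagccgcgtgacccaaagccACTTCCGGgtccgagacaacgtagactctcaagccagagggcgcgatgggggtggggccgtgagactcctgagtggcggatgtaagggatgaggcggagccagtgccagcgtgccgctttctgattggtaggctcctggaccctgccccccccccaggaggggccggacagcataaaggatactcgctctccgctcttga

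The libraries held between 16897873 and 20259175 reads on genes. Ets1 itself fell from 3282 ± 389 (SD, n = 3) to 742 ± 90.6 normalised reads (log2 fold change −2.15, SE 0.11, adjusted p from limma 3.93e-07). Values are read counts divided by 1 size factor per library, and a gene is called where its adjusted p is under 0.05 over all 20595 tested genes. Of these, 20.9% were called, 10.4% higher and 10.5% lower in knockouts. All 10 macrophage markers were tested, 2 higher and 2 lower, with a median log2 fold change of −0.091. Lyz2, the locus that carries Cre, went from a mean of 138291 to 203340 and Adgre1 from 68331 to 101872, while Csf1r (−0.34) and Mrc1 (−1.15) were the markers called lower. The summed macrophage count, in which Lyz2 and Adgre1 weigh most, was 303425 to 307734 in controls and 379681 to 395195 in knockouts. Markers of other cell types were called lower in part, and none was called higher. The 8 stromal markers, all called lower, summed to 10733 to 15916 in controls and 3459 to 4198 in knockouts. Neutrophil markers, 7 of 10 lower, summed to 20126 to 23525 and 11539 to 12059. B and plasma cell markers, 7 of 9 tested lower, summed to 1326 to 1581 and 1019 to 1102, and Cd79b and Sdc1, neither called, weigh most in these sums. The sums of mast cell and basophil markers, 4 of 7 lower and 2 at 0 reads in every knockout, were 174 to 251 and 37.0 to 45.8. T and NK cell markers, 2 of 7 lower and 1 at 0 reads in every knockout, summed to 629 to 853 and 466 to 669, with overlap. In that sum Cd4, called lower from a mean of 371 to 52.6, and Il7r, not called at 361 and 493, weigh most. The T cell receptor genes Cd3e, Cd3d and Cd3g held 0 to 3 reads per library and Trac 0 to 5, so the sum does not show T cells. Dendritic cell markers, 1 of 8 lower, summed to 371 to 541 and 332 to 359. The part of these markers in the results below was not tested. In bulk RNA, fewer cells of a type and less RNA per cell cannot be told apart.

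The libraries also differed in the level of short against long genes. Genes of 1000 to 1500 bases had a median log2 deviation from the 6-library mean of 0.29 in control replicate 3 and 0.14 in control replicate 2. Control replicate 1 was at −0.0097, and the knockouts lay between −0.14 and −0.087. Genes over 8000 bases went the other way, at −0.20 in control replicate 3, −0.072 in control replicate 2, 0.047 in control replicate 1 and 0.070 to 0.11 in knockouts. The members' listed lengths ran from 1637 bases (Chac1) to 4254 bases (Psat1). Fold changes are therefore also given below with this trend removed within each library, a setting chosen after the data were seen.

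**Figure D1:**
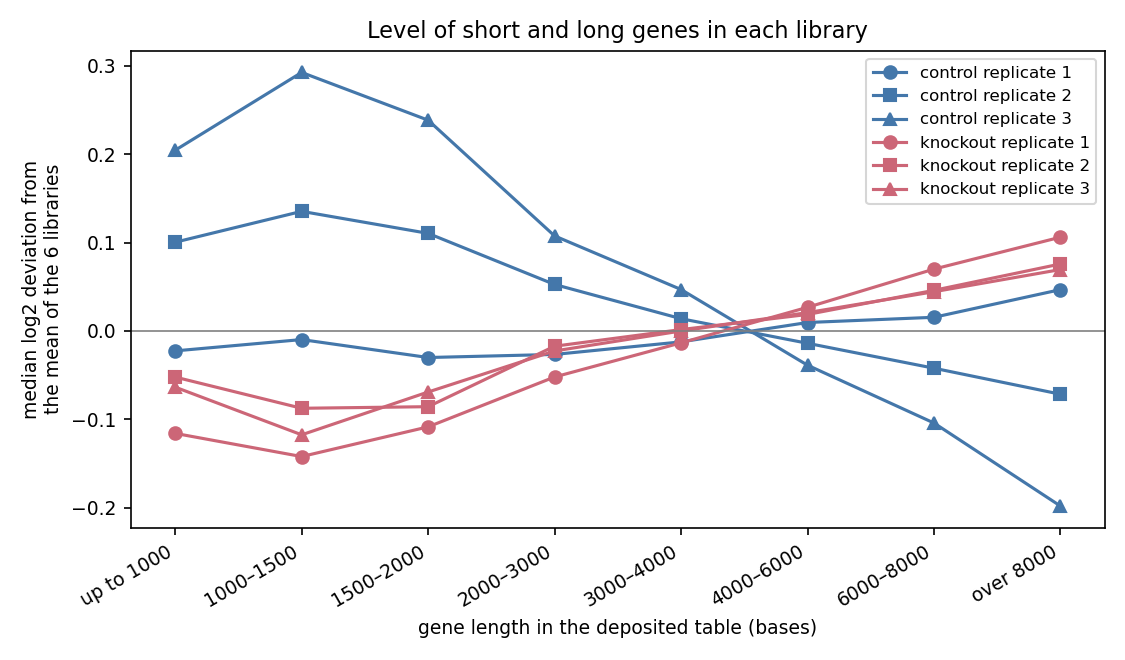
Median log2 deviation of genes from the mean of the 6 libraries (y axis) by gene length class (x axis, bases), 1 line per library, controls in blue and knockouts in red. Control replicate 3 stands at 0.29 for genes of 1000 to 1500 bases and at −0.20 for genes over 8000 bases, while control replicate 1 lies nearer to the knockouts.

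Of the 10 members, 4 rose (Asns, Trib3, Herpud1 and Hspa5), 1 fell (Ddit4) and 5 did not pass. For comparison, 10.4% of all tested genes, which include many with low counts, were called higher and 10.5% lower. Among the 13676 genes with a mean of at least 10 over all libraries, 2249 were called higher and 2012 lower. In that fit 5 members were higher and 1 lower. The members were chosen with earlier results of these data known, so their shares beside all genes are no independent result. The groups of libraries did not overlap in 7 members, against 36.8% of all tested genes. The amino acid response members moved in both directions, with log2 fold changes from −0.76 to 1.18 and a median of −0.0029. The ER members all had positive fold changes, from 0.20 to 0.58, with a median of 0.28, and the median of all tested genes was −0.035. The largest and the smallest changes among the 10 were both in amino acid response members, Trib3 at one end and Psat1 and Chac1 at the other, and 1 of the 3 ER members, Xbp1, did not pass. With 7 and 3 genes, the contrast between the arms was not tested.

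**Figure D2:**
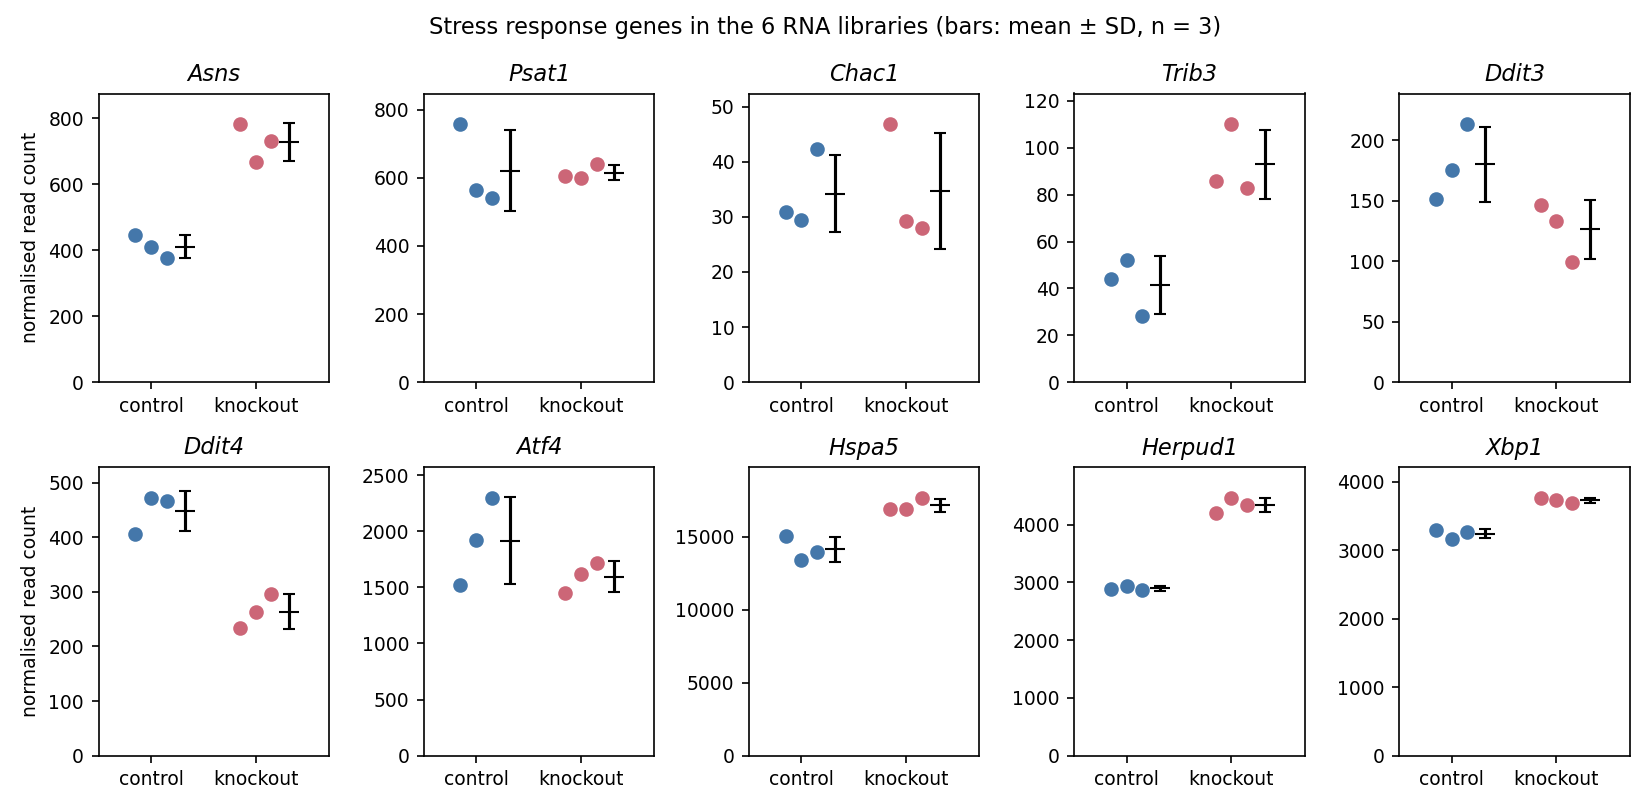
Normalised read count (y axis, from 0) of each of the 10 genes in the 3 control (blue) and 3 knockout (red) libraries, with mean ± SD in black. Asns, Trib3, Herpud1, Hspa5 and Xbp1 lie higher in all 3 knockouts than in any control, Ddit3 and Ddit4 lie lower, and Psat1, Chac1 and Atf4 overlap.

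Asns (ENSMUSG00000029752, chromosome 6, 7675169 to 7693254 on mm10, minus strand) codes for asparagine synthetase, which makes asparagine from aspartate and is a classical ATF4 target. Its normalised count was 446, 409.9 and 376 in the controls and 781, 666 and 732 in the knockouts. Every knockout lay well above the highest control. The rise was 1.77-fold, from 410 ± 34.9 to 727 ± 57.6 (log2 fold change 0.82, SE 0.10, adjusted p 0.000149), and 0.88 with the length trend removed. The call remained without any 1 library (adjusted p up to 0.00457).

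Trib3 (ENSMUSG00000032715, chromosome 2, 152337422 to 152344032, minus strand) codes for a pseudokinase that binds ATF4 and restrains it. The controls stood at 44, 52.1 and 28.2 and the knockouts at 86.0, 109.9 and 82.7, so the groups did not overlap although both spread widely. Trib3 rose 2.24-fold, from 41.4 ± 12.2 to 92.9 ± 14.9 (log2 fold change 1.18, SE 0.25, adjusted p 0.00649), and by 1.30 on the log2 scale with the length trend removed. It rests on 399 reads over the 6 libraries, and without knockout replicate 2 the log2 fold change was 1.05 with an adjusted p of 0.0603.

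Ddit4 (ENSMUSG00000020108, chromosome 10, 59949669 to 59951834, minus strand) codes for REDD1, an inhibitor of the growth kinase complex mTORC1. Its counts were 405, 472 and 466 in controls and 233, 263 and 296 in knockouts. No knockout reached the lowest control. Ddit4 fell 1.7-fold, from 448 ± 36.9 to 264 ± 31.7 (log2 fold change −0.76, SE 0.12, adjusted p 0.000839). With the length trend removed the value was −0.60 (adjusted p 0.00117).

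Ddit3 (ENSMUSG00000025408, chromosome 10, 127290774 to 127296288, plus strand) codes for CHOP, a factor that lies downstream of ATF4 in prolonged stress. Controls held 152, 176 and 213 and knockouts 147, 133 and 99.5. The knockouts were all lower, by little in the nearest pair. The log2 fold change of −0.51 (SE 0.18) had an adjusted p of 0.0640, which became 0.0299 with scaling to total reads and 0.0451 in edgeR with TMM scaling. With the length trend removed it was −0.34 (adjusted p 0.164). Ddit3 overlaps the end of the methionyl-tRNA synthetase gene Mars on the opposite strand by 68 bases, and whether reads were counted by strand is not stated.

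Atf4 itself (ENSMUSG00000042406, chromosome 15, 80255184 to 80257541) was at 1525, 1926 and 2297 in controls and 1446, 1618 and 1719 in knockouts. Groups overlapped, and the controls spread more widely than the knockouts. The difference, −0.25 on the log2 scale (SE 0.13), had an adjusted p of 0.193. Without control replicate 1 the value was −0.40 (adjusted p 0.00721), and with the length trend removed −0.16 (0.292).

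Psat1 (ENSMUSG00000024640), the phosphoserine aminotransferase of serine synthesis, was at 757, 565 and 539 in controls and 604, 600.3 and 642 in knockouts. Control replicate 1 alone lay above the rest. The log2 fold change was 0.0039 (SE 0.12, adjusted p 0.986). Chac1 (ENSMUSG00000027313), an enzyme that breaks down glutathione, was at 30.8, 29.5 and 42.3 in controls and 46.8, 29.2 and 27.9 in knockouts. Its groups overlapped fully, with 208 reads in all, and its log2 fold change of −0.0029 had an SE of 0.30.

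Herpud1 (ENSMUSG00000031770, chromosome 8, 94386438 to 94395377, plus strand) codes for a membrane protein of the ER degradation complex. Normalised counts of 2878, 2944 and 2861 in controls compared with 4205, 4461 and 4345 in knockouts. Both groups were tight and far apart. The rise was 1.5-fold, from 2894 ± 43.9 to 4337 ± 128 (log2 fold change 0.58, SE 0.07, adjusted p 0.000106), and 0.68 with the length trend removed. An antisense gene, Gm15890, overlaps it over 535 bases, at a mean of 0.969 in controls and 3.88 in knockouts.

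Hspa5 (ENSMUSG00000026864, chromosome 2, 34771970 to 34777547, plus strand) codes for BiP, the main ER chaperone of the HSP70 family. It had 15047, 13370.1 and 13944 in controls and 16880.5, 16856 and 17640.3 in knockouts, with no overlap. The rise was 1.21-fold, from 14121 ± 852 to 17126 ± 446 (log2 fold change 0.28, SE 0.08, adjusted p 0.0225). It was 0.26 with the length trend removed (adjusted p 0.00950). The call was lost with scaling to total reads (0.15, adjusted p 0.140) and without control replicate 2 (0.139) or any knockout (0.0857 to 0.113).

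Xbp1 (ENSMUSG00000020484, chromosome 11, 5520659 to 5525893, plus strand) codes for the factor activated by IRE1 splicing. Controls stood at 3293, 3164 and 3257 and knockouts at 3761, 3730.3 and 3685. All knockouts were above all controls, at 1.15 times the control mean. The log2 fold change was 0.20 (SE 0.07) with an adjusted p of 0.0501, 0.0138 with the length trend removed and 0.478 with scaling to total reads. In the authors' deposited table its adjusted p is 0.0254.

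**Figure D3:**
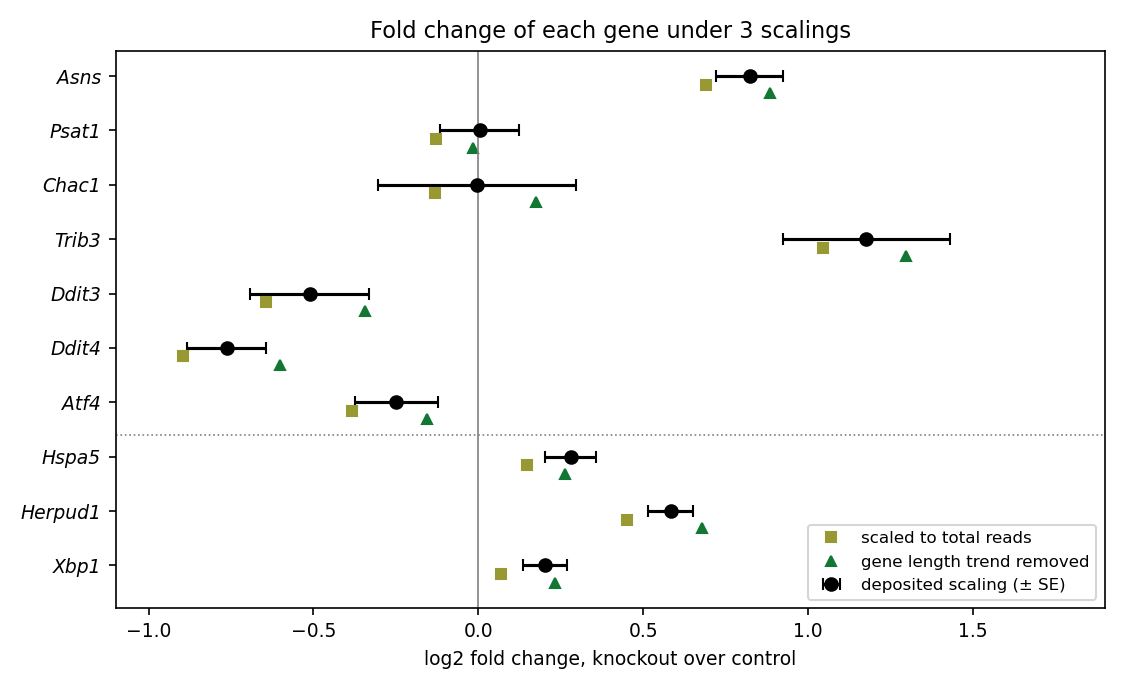
Log2 fold change of each gene (x axis, knockout over control), amino acid response genes above the dotted line and ER genes below, under the deposited scaling with SE (black), with scaling to total reads (squares) and with the gene length trend removed (triangles). Asns, Trib3 and Herpud1 stay to the right of 0 and Ddit4 to the left under all 3, while Hspa5 and Xbp1 come to 0.15 and 0.07 when scaled to total reads.

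Per kilobase of listed gene length, control levels ran in the order Hspa5 (3339 normalised reads per kb), Herpud1 (1241), Xbp1 (997), Atf4 (813), Ddit4 (255), Asns (150.1), Psat1 (146), Ddit3 (105), Chac1 (20.9) and Trib3 (19.5). In mean, the ER genes were thus all above the amino acid response genes. Among controls Herpud1 at 1226 to 1262 lay above Xbp1 at 974 to 1014, and Xbp1 in turn overlapped Atf4 at 647 to 974 only at its edge. Asns and Psat1, and Chac1 and Trib3, did not differ beyond their spread. Among knockouts Asns at 244 to 286 passed Ddit4 at 133 to 169, and Trib3 at 38.9 to 51.7 passed Chac1 at 17.1 to 28.6.

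The genes closest in profile were sought among 10915 others with a mean of at least 50, by the root mean square difference of log2 values from the control mean over the 6 libraries. Nearest to Asns were Rims3, Dennd2c, Pcmtd1, 1700025G04Rik and Sos1, at 0.0514 to 0.0701. Nearest to Herpud1 were Senp6, Shtn1, Fam49a, Cd180 and Nectin2, at 0.0341 to 0.0425.

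Genes of the same pathways outside the 10 members were examined as 5 lists. Like the members, these lists were chosen with earlier results of these data known, so their shares of calls are no independent result. Over these lists with 127 tested genes, 46 (36.2%) were called higher and 13 (10.2%) lower. Of all tested genes, which include many with low counts, 10.4% were higher and 10.5% lower. Among the 13676 genes with a mean of at least 10 over all libraries, 2249 were called higher and 2012 lower. In that fit the lists had 48 higher and 13 lower. Scaled to total reads the counts over the lists became 28 and 23. Leaving out 1 library gave 22 to 54 higher and 4 to 21 lower. Without control replicate 2 the counts were 23 and 5, with knockout replicates 1, 2 and 3 omitted in turn 23 and 6, 22 and 4, and 25 and 8, with control replicate 3 omitted 40 and 8, and with control replicate 1 omitted 54 and 21.

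Cytosolic tRNA synthetases, which charge tRNAs with amino acids and include many ATF4 targets, had 13 of 20 members called higher and 0 lower, with a median log2 fold change of 0.30. At an unadjusted p under 0.05 limma likewise gave 0 lower and 16 higher, and DESeq2 and edgeR called 0 lower. Alanyl-tRNA synthetase (Aars) was at 3520, 2825 and 2550.2 in controls and 4863, 4496 and 4566 in knockouts. All knockouts lay above all controls, and the 2965 ± 500 of controls became 4642 ± 195 (log2 fold change 0.66, SE 0.10, adjusted p 0.000958). Cars (0.54), Eprs (0.48) and Gars (0.47), for cysteine, glutamate with proline, and glycine, followed. With the length trend removed 15 were higher, with total reads 8, and without control replicate 2 or knockout replicates 1 or 2 it was 7, and 8 without knockout replicate 3. Eprs lost its call in each of those 3 fits (adjusted p up to 0.0654). Promoter windows were matched for 5 synthetases with the core TGATGNAA (Aars, Gars, Iars, Tars and Yars), of which 4 were higher, and for 7 without it, of which 4 were higher. Among the other ATF4 targets with a window, 2 of 8 with the core and 5 of 21 without it were higher. No further list held more than 2 genes with the core. Among all tested genes with a window, 13.9% of 368 with the core and 13.3% of 12081 without it were higher. A link between the core and the calls was not tested.

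Other ATF4 targets split evenly, with 9 of 37 tested higher, 9 lower and 19 not called, and a median log2 fold change of −0.12. Higher were Ndrg1, a stress-responsive cytosolic protein, which went from 13192 ± 739 to 30599 ± 583 (log2 fold change 1.22, adjusted p 1.31e-06), and Slc7a1, the cationic amino acid transporter that brings in arginine, from 809 ± 178 to 1790 ± 55.9 (1.17, adjusted p 9.03e-05). In both the knockouts were at 2.32 and 2.21 times the control mean. The lipoprotein receptor gene Vldlr (0.87) and Aldh18a1 (0.53), which starts proline synthesis, also rose, as did the mitochondrial folate enzyme gene Mthfd2, from 755 ± 41.5 to 1060 ± 50 (0.49). Lower were Bcat1, the cytosolic branched-chain aminotransferase, at 191, 114 and 142 in controls and 44.6, 37.0 and 36.9 in knockouts (−1.86, adjusted p 0.000117), and the glutamine transporter gene Slc1a5 (−0.68). Ppp1r15a, which codes for GADD34, the factor that restores translation, went from 352 ± 45.2 to 242 ± 11 (−0.54; without knockout replicate 2 its adjusted p was 0.0559). Phgdh, the first enzyme of serine synthesis, was at −0.51 (adjusted p 0.0371), but no longer called without any 1 library (0.0549 to 0.181) or with the length trend removed (0.0741). The number of lower calls was 5 with the length trend removed, 3 on omission of control replicate 2, and 4 and 2 on omission of knockout replicates 1 and 2. The called genes that rose had a median length of 6033 bases and those that fell 2486 bases. The part of the length trend in this split was not tested beyond the counts given.

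Other ER chaperones and folding enzymes had 9 of 28 called higher, 1 lower and 18 not called, with a median log2 fold change of 0.15. Hyou1, a large HSP70-type ER chaperone, was at 4559, 3208 and 2718 in controls and 5521, 5264 and 5217 in knockouts. Controls spread over a wide range, but none reached the knockouts. Its mean of 3495 ± 953 became 5334 ± 164 (log2 fold change 0.64, adjusted p 0.00741), and the disulphide isomerase gene Pdia4 (0.55), the glycoprotein folding sensor gene Uggt1 (0.41) and Txndc5 (0.36), another disulphide isomerase, also rose. The calls of Hyou1, Pdia4 and Uggt1 were lost on omission of control replicate 2 (adjusted p 0.0736, 0.0618 and 0.0788) or of knockout replicate 2 (0.0624, 0.0638 and 0.0700), and those of Hyou1 and Uggt1 without knockout replicate 1 (0.0621 and 0.0726) too. Uggt1 also lost its call without knockout replicate 3 (0.0567). Creld2, a secreted ER stress protein, was lower (−0.38, adjusted p 0.0277), but not with the length trend removed (−0.18, 0.217) or without any 1 library other than control replicate 1 (0.0602 to 0.129). Among abundant members, the disulphide isomerase gene P4hb (0.33, adjusted p 0.0101) and the calnexin gene Canx (0.28, 0.0168) rose, while Hsp90b1 at 0.20 (0.0895) and the calreticulin gene Calr at 0.19 (0.0881) did not pass. The higher count was 10 with the length trend removed, 5 with total reads, and 2 or 3 without control replicate 2 or any knockout. Lower calls numbered 7 with total reads, 4 in edgeR with TMM scaling and 6 without control replicate 1, and 0 without each other library.

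Of 21 other ER-associated degradation genes, 8 were higher, 1 lower and 12 not called. Sel1l, the scaffold of the HRD1 ubiquitin ligase, was at 5237, 4727 and 3865 in controls and 7110.2, 6659 and 6838 in knockouts, with no overlap. Sel1l rose by 0.59 on the log2 scale (SE 0.10, adjusted p 0.00161), and the ubiquitin-conjugating enzyme gene Ube2j1 (0.50), the segregase gene Vcp (0.43) and the mannosidase-like gene Edem1 (0.39) also rose. Selenok, a selenoprotein of the same system, was lower (−0.40, adjusted p 0.0410), but not with the length trend removed (0.0749) or without any 1 library other than control replicate 1 (0.122 to 0.172). The number called higher was 9 with the length trend removed, 4 with total reads, and 5, 5, 4 and 4 on omission of control replicate 2 and knockout replicates 1, 2 and 3. Lower calls numbered 3 with total reads and 3 without control replicate 1, and 0 with the length trend removed or without each other library. The called genes that rose had a median length of 5616 bases, and Selenok a length of 1891.

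Among 21 stress sensors and regulators, 7 were higher and 2 lower. The sensor gene Atf6 went from 3742 ± 579 to 5134 ± 81.7 (log2 fold change 0.47, adjusted p 0.00649). Eif2ak4, which codes for GCN2, was at 463, 484 and 482 in controls and 639.8, 570.2 and 637 in knockouts, with no overlap (0.37, adjusted p 0.0130). Gcn1l1 (0.53), which activates GCN2, and Impact (0.52), which opposes it, both rose, as did Eif2ak2 (0.44), the kinase PKR of the antiviral response. The ER sensor kinase genes Eif2ak3, for PERK, at −0.033 (adjusted p 0.833) and Ern1, for IRE1, at −0.094 (0.410) did not pass. Lower were Ddit4l, the close relative of Ddit4, at 97.8, 56.0 and 77.1 in controls and 21.8, 22.4 and 22.4 in knockouts (−1.71, adjusted p 0.000860), and Trib2, the relative of Trib3, from 110 ± 8.14 to 35.6 ± 3.16 (−1.60, adjusted p 0.000173). Trib1, the most abundant of the 3 Trib genes, was at 0.054 (adjusted p 0.692). The higher count was 3 on omission of control replicate 2, it was 2, 3 and 3 for knockout replicates 1, 2 and 3, and it was 4 with total reads. Calls lost in such fits included Gcn1l1 (up to 0.0817) and, without knockout replicates 1 and 2, Atf6 (0.0517 and 0.0530).

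**Figure D4:**
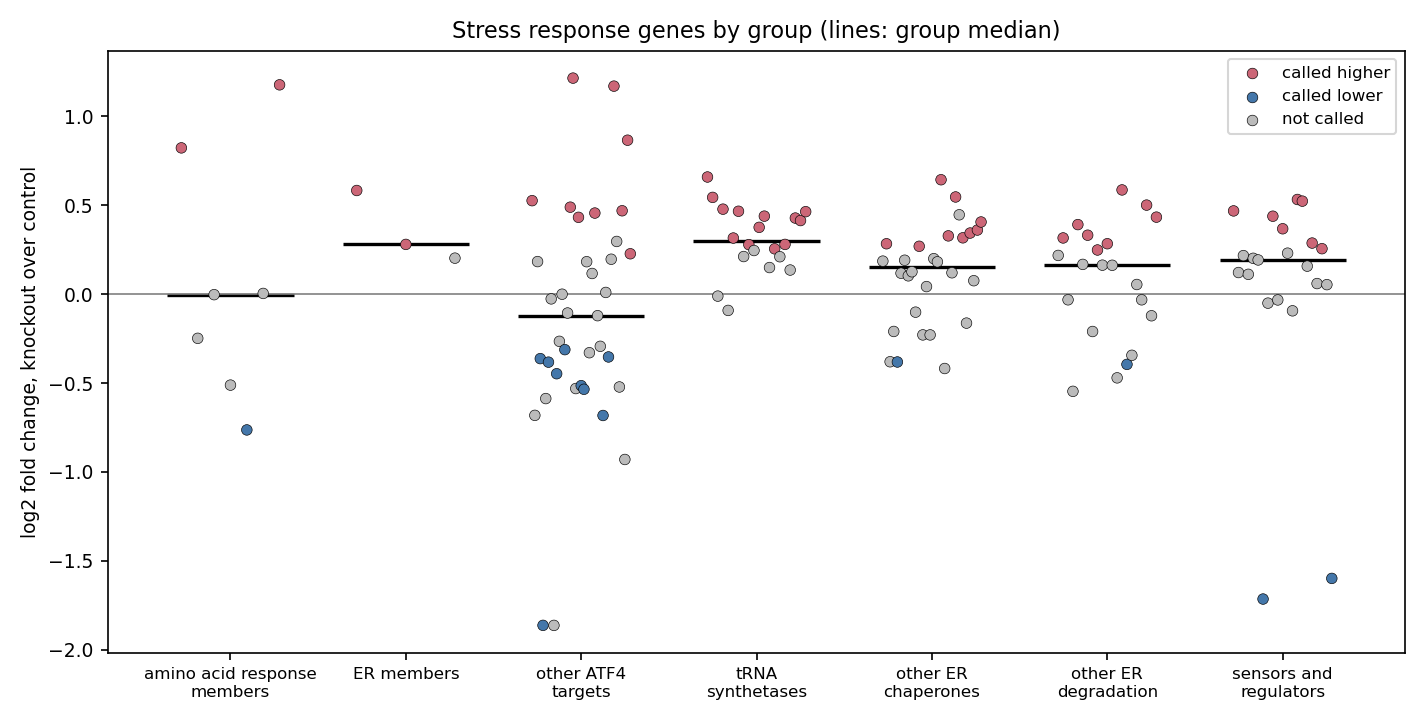
Log2 fold change (y axis, knockout over control) of each tested gene in the 2 groups of members and 5 further lists (x axis), called higher in red, called lower in blue and not called in grey, with the median as a line. tRNA synthetases sit mostly above 0 with a median of 0.30, while other ATF4 targets lie on both sides with a median of −0.12.

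Ddit4 is also known to answer to low oxygen and to glucocorticoids, so genes of those responses were set beside it. Of 17 hypoxia-responsive genes 10 were lower and 1 higher (Hk2, 0.43), against 10.5% and 10.4% of all tested genes. Among the 13676 genes with a mean of at least 10 over all libraries, 2012 were called lower and 2249 higher. In that fit the hypoxia list had 10 lower and 1 higher. This list and the glucocorticoid list were, like the members, chosen with earlier results of these data known. The median log2 fold change of the 17 hypoxia-responsive genes in the main fit was −0.32. Vegfa, the vascular growth factor, was at 2003, 2777 and 2970.2 in controls and 1303, 1170.5 and 1089 in knockouts (−1.1, adjusted p 0.000106). Higd1a (−0.63), Egln3 (−0.42) and Bnip3 (−0.36) followed. Lower calls fell to 2 without control replicate 2, and to 4, 1 and 2 without knockout replicates 1, 2 and 3. Of 12 glucocorticoid-responsive genes 3 were lower and 1 higher (Nfkbia, 0.42). Mt1 was among the lower genes, from a mean of 2082 to 981 (−1.0, adjusted p 0.00626). Errfi1, a feedback inhibitor of the EGF receptor, went from 1526 ± 83.3 to 659 ± 53.6 (−1.21, adjusted p 3.09e-06), and Tsc22d3, which codes for GILZ, from 1553 ± 349 to 1011 ± 122 (−0.60, adjusted p 0.0114). The call of Tsc22d3 was lost without control replicate 2 (0.0854) and knockout replicates 1 (0.0910) and 2 (0.0529), and the lower count was 1 in each of those fits and 6 with total reads. Any relation of these genes to Ddit4 was not tested.

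Ets1 peaks near the members' start sites were counted in the M1 list of 23089 peaks and the M2 list of 22640 peaks, each from 1 library, so no test between states was possible. Start sites are those of the deposited table, and fold enrichment and −log10 q are the authors' values. In M1, 8 of 10 members had a peak summit within 10 kb, against 62.1% of all tested genes and 78.6% of those with a mean of at least 30. In M2 it was also 8 of 10, against 63.7% and 80.7%. Within 1 kb, 7 of 10 members had a summit in each state, against 45.3% (M1) and 46.7% (M2) of tested genes, or 66.6% and 68.4% of those with a mean of at least 30. The members' shares were thus close to those of expressed genes.

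The ER members all had a peak over the start in both states. At Hspa5 the M1 peak (chromosome 2, 34771549 to 34772507) had a fold enrichment of 10.7 and a −log10 q of 35.6, and the M2 peak (34771463 to 34772498) 12.2 and 65.6, which placed them in the top 5.12% and 2.63% of their lists. Both peaks held the ER stress response element shown above. At Herpud1 a peak over the start had fold enrichments of 9.57 (M1) and 9.15 (M2), and both covered its ER stress variant, while the M2 peak alone reached its TGATGNAA match. At Xbp1 the values were 8.20 and 6.83, with summits 220 bases (M1) and 181 bases (M2) into the gene.

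Peaks at amino acid response genes ranged from strong to absent. Atf4 had a peak over its start with fold enrichments of 7.96 (M1) and 8.90 (M2) and −log10 q of 21.7 and 46.6. Ddit4, the member that fell, had peaks with summits 74 bases (M1) and 29 bases (M2) before its start, at fold enrichments of 7.91 and 8.92. At Ddit3 the strongest M1 peak (chromosome 10, 127290374 to 127291188) had a −log10 q of 56.8 and its summit 130 bases before the start, and a wide M2 peak (127288490 to 127291219) had a −log10 q of 83.2. Both held the CCGGAAGT match shown above. The summit of that M2 peak lay 262 bases from the start of Mbd6 and 1494 bases from that of Ddit3, so it cannot be assigned to Ddit3 alone.

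At Trib3 and Asns, the amino acid genes that rose, peaks differed between the lists. Trib3 had summits 105 bases (M1) and 333 bases (M2) into the gene. The M1 peak, with a fold enrichment of 4.29 and a −log10 q of 2.72, was below its list's medians of 5.68 and 5.87, and the M2 peak, with 6.70 and 8.21, was above its list's medians of 5.90 and 7.28, and neither peak reached its TGATGNAA match. Asns had a peak in M2 alone (chromosome 6, 7692858 to 7693250), with a fold enrichment of 4.13 and a −log10 q of 2.50, and its TGATGNAA match lay inside. Chac1 had in M1 a summit 5452 bases past its start, beyond the gene's listed end, and none in M2. Psat1 had none within 10 kb of the start given in the deposited table, but peaks in both states lay at its RefSeq starts, 22278 and 22715 bases away, with fold enrichments of 7.19 and 6.41. Counted from RefSeq starts, a choice made after the data were seen, 9 members had a peak in each state. RNA came from macrophages with no labelled polarization, so these peaks were not measured in the cells whose RNA was compared.

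**Figure D5:**
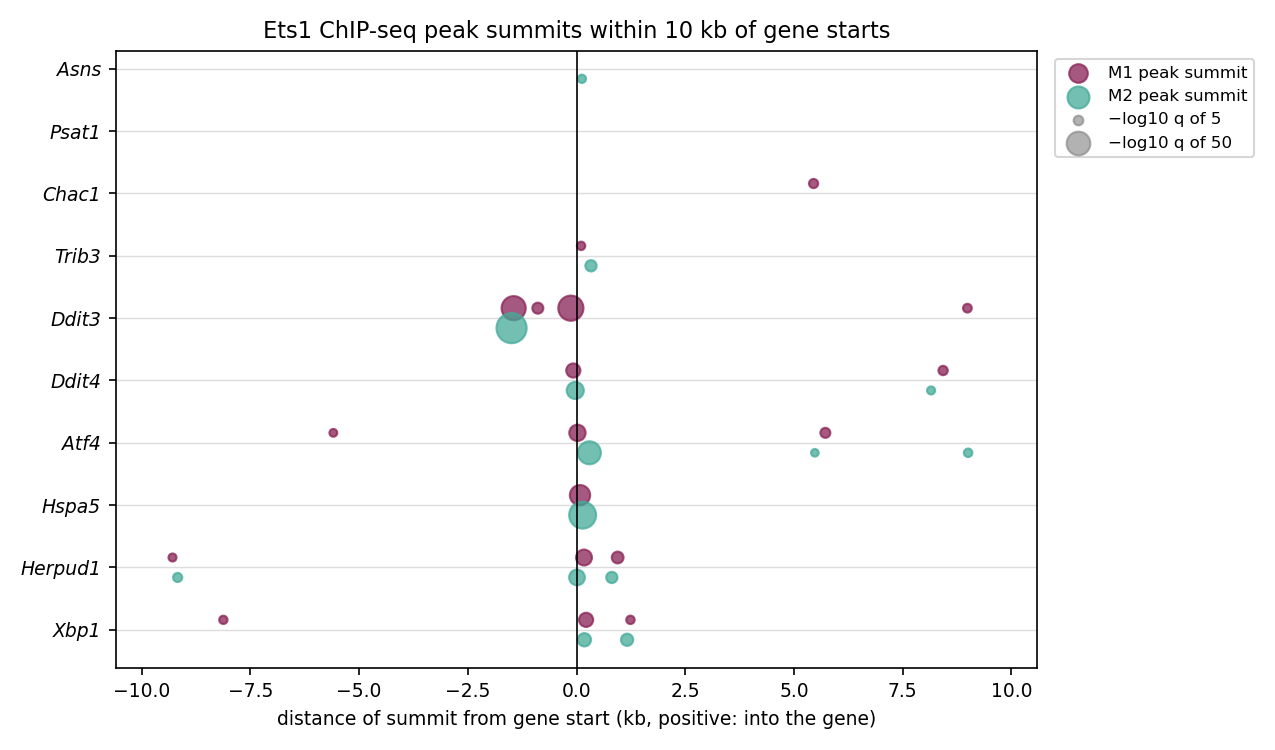
Distance of Ets1 peak summits from each gene's start (x axis, kb, positive into the gene) for M1 (purple) and M2 (green), with point area growing with −log10 q. Summits cluster at the start for Hspa5, Herpud1, Xbp1, Atf4 and Ddit4. Ddit3 has its strongest M1 summit 130 bases and its only M2 summit 1494 bases before the start. Psat1 has none in this window.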

How the data were processed

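RNA was measured in 3 control and 3 knockout libraries and Ets1 ChIP-seq in 1 M1 and 1 M2 library. The authors deposited size-factor-normalised counts per gene (treated as a signal), and 100% of them came out as whole reads, within 0.001, once divided by what 1 read is worth in that library. On these reads edgeR with TMM scaling called 4334 genes. The authors' log2 ratio (control relative to knockout) and their raw and adjusted p-value per gene stand in the same deposited table. The deposited peak lists hold a score of 10 times the −log10 q, a fold enrichment (ratio), a −log10 p and a −log10 q per peak, on mm10. Per the submitters' processing notes, HISAT2 2.1.0, Bowtie2 2.2.3 and HTSeq 0.6.0 served the RNA libraries, and BWA, SAMtools, MACS2, deepTools and DESeq2 the ChIP libraries. Not given in the sources used here are the annotation release, strand setting, input control and peak cut-off.

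Knockout was compared with control by limma 3.58.1 (R 4.3.3) with a trend on log2(value + 1), over genes whose mean reached 1 in controls or in knockouts, with Benjamini-Hochberg adjustment over all tested genes and a threshold of 0.05. Folds are ratios of mean normalised counts. Fold changes on the log2(value + 1) scale understate changes of low genes. Alternatives used pseudocounts of 0.5 and 4, other filters, scaling to total reads, edgeR 4.0.16 and DESeq2 1.42.0 on recovered reads, the replicate number as a block, each library left out, and removal of a lowess trend on gene length (span 0.3, added after the data were seen). The fit was tested on simulated data. A peak was placed at its summit and called shared when at least 1 base overlapped. Named pathway genes are the called genes with the 4 largest rises and 4 largest falls of each list. Mthfd2, Eif2ak4, P4hb, Canx, Hsp90b1, Calr, Trib1, Eif2ak3 and Ern1 were added by hand after their values were seen, as were the motifs. The members and lists were chosen with earlier results of these data known. Promoter sequences are from RefSeq, and the tables used are not complete.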

Additional observations from a re-analysis of the deposited data

How the results depend on the processing

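Over all alternatives run, Asns and Herpud1 kept their rise and Ddit4 its fall, and the log2 fold change of Trib3 stayed between 0.93 and 1.36, with its call lost only without knockout replicate 2 (1.05, adjusted p 0.0603). Of the 10 members, 2 to 5 were called higher and 1 to 3 lower when 1 library was left out, against 4 and 1, with 2 higher without knockout replicate 2 and 3 lower without control replicate 1. Lower calls among members numbered 2 with total-read scaling, 2 in edgeR with TMM scaling (Ddit3 in both) and 3 with the replicate block. For the 5 pathway lists, total-read scaling gave 28 higher and 23 lower, and left-out libraries gave 22 to 54 higher and 4 to 21 lower. Total-read scaling moved the median change of all genes (log2) from −0.035 to −0.16 and the share of higher calls from 49.8% to 26.7%. All tested genes called ranged from 2029 to 5716 with 1 library left out, against 4298.

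Psat1, with no difference called in any fit, was at −0.13 with total-read scaling, −0.048 with TMM, −0.015 with upper-quartile scaling, −0.013 in DESeq2, −0.015 with the length trend removed and −0.089 to 0.16 with 1 library left out. Chac1 was at 0.014 with upper-quartile scaling, 0.017 in DESeq2, 0.17 with the length trend removed and −0.23 to 0.16 with 1 library left out. The cause of these shifts was not tested. Peaks near members shared between states numbered 13 of 18 (M1) and 11 of 14 (M2) at 1 base, and 7 in each when 50% of each peak had to overlap. A −log10 q of at least 5 left 6 members with an M1 peak and 7 with an M2 peak.

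No pairing of control and knockout libraries is labelled beyond a shared replicate number. Correlations of same-numbered deviations were 0.0224, 0.0230 and 0.0308, and those of differently numbered ones −0.0173 to −0.0056. All were small, although each library correlated best with its own number, and the replicate block was run as an alternative. The block gave 5374 called genes, 20 lower pathway genes against 13, and called Ddit3 (adjusted p 0.0351), Atf4 (0.0256) and Xbp1 (0.0394). Chac1 rests on 208 reads, and counting error was not separated from the spread between libraries.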

Other observations

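A peak far upstream of Herpud1 had no other listed gene start nearer to it. It lay at chromosome 8, 94365392 to 94366074 in M1 and 94365392 to 94366031 in M2, with its summit 20677 bases before the start in both states. Its fold enrichments of 15.6 and 13.4 exceeded those of the peak over the Herpud1 start, at 9.57 and 9.15, and it ranked 350th and 718th by −log10 q in the lists. Some other distant peaks lay close to the starts of neighbouring genes. The peak 21221 bases before Atf4 had its summit 55 bases from the start of Mief1, and the peaks 11499 bases (M1) and 11500 bases (M2) past the start of Trib3 had summits 120 bases (M1) and 121 bases (M2) from the start of Rbck1.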
